A study of Homo sapiens with 8 samples.

Results

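The double-stranded RNA sensors were taken here as 9 genes: RIGI, IFIH1 (MDA5), DHX58 (LGP2), EIF2AK2 (PKR), MAVS, TLR3, TLR7, ZBP1 and ADAR. A probe set was a member where the platform annotation gave it 1 of these symbols alone, which yielded 22 of the 54675 probe sets of the array. Of the 22, 19 reached log2 5 on at least 2 of the 8 arrays and were tested. The other 3, 1 of TLR3 and both of ZBP1, stayed under that floor, so 8 of the 9 genes had a tested probe set. Total RNA came from Reh, an established human cell line that the series design derives from acute lymphoblastic leukemia and the sample labels list as non-Hodgkin lymphoma. The 4 groups, with 2 arrays each, were cells given a control shRNA (titled mock), an shRNA against the corepressor gene CBFA2T3, IKKβ(EE), a constitutively active IκB kinase β that drives NF-κB, or the CBFA2T3 shRNA and IKKβ(EE) together, called both from here on. Knockdown and expression were transient. The labels name the 2 arrays of a group as biological replicates. They leave unsaid whether a control shRNA was given along with IKKβ(EE) alone, how long after transfection RNA was taken, or whether transfected cells were selected. The control group carried an shRNA too, so a reaction common to any shRNA cannot be seen in these comparisons.

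Double-stranded RNA is a sign of viral infection, and cells detect it in the cytoplasm and in endosomes. RIG-I and MDA5 are cytoplasmic helicases that bind viral RNA and signal through the mitochondrial adaptor MAVS to the kinases TBK1 and IKKε and to NF-κB, which switch on type I and type III interferon genes. LGP2 is another helicase of this family and tunes the other two. PKR halts translation by phosphorylating eIF2α, TLR3 and TLR7 sense double-stranded and single-stranded RNA in endosomes, ZBP1 senses Z-form nucleic acid, and ADAR edits adenosine in double-stranded RNA to inosine. An shRNA is itself a hairpin of double-stranded RNA, and several of these genes are also interferon-stimulated, so their levels can follow a sensor's activity. The question asked of the data was whether they differed between cells with the control shRNA, the CBFA2T3 shRNA and IKKβ(EE).

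The targeted genes followed the labels. CBFA2T3 stood at 50.0% of control with its shRNA (limma adjusted p = 0.0518, or 0.0100 with the replicate number as a block) and at 42.8% with both (adjusted p = 0.00938). IKBKB, which encodes IKKβ, rose by 6.63 ± 0.30 (SE) on the log2 scale with IKKβ(EE) on 1 of its 3 probe sets (adjusted p = 0.000312). Of 11 B-cell precursor genes on the array, 10 (CD79A, PAX5, EBF1, DNTT and RAG1 among them) were at or above log2 5 on all 8 arrays, and VPREB1 was under it on all 8. Markers of plasmacytoid dendritic cells, which make interferon through TLR7, numbered 6: LILRA4, CLEC4C and GZMB were under log2 5 on all 8 arrays, NRP1 reached it on 1 and IL3RA on 7, and TCF4, which B cells also express, was at 12.2 to 12.6. Of 7 T and NK cell genes 5, and of 7 monocyte genes 5, were under log2 5 on all 8 arrays. The T-cell gene CD3D reached log2 5 on 1 array and the monocyte gene CSF1R on 6. ITGAM, a monocyte gene, was above it on all 8, with means of 5.46, 6.04, 6.45 and 6.18 in control, CBFA2T3 shRNA, IKKβ(EE) and both, and LYZ had means of 3.04, 4.42, 2.76 and 3.45. NKG7 was the T and NK gene that differed between groups, with means of 5.56 and 5.53 with the CBFA2T3 shRNA and both against 4.64 in each of the other two groups. Mean levels over the 7 T and NK genes ranged from 3.99 to 4.21 in control arrays and from 4.15 to 4.16 with both. Over the 7 monocyte genes they ranged from 3.88 to 3.92 in control arrays, 4.16 to 4.31 with the CBFA2T3 shRNA, 3.82 to 4.09 with IKKβ(EE) and 3.93 to 3.93 with both. Of 7 fibroblast and epithelium genes 4 were under log2 5 on all 8 arrays. COL1A1 was at 7.07 to 7.57, KRT8 reached log2 5 on 3 arrays and DCN on 1. The part of these marker genes in the results was not tested.

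The 3 helicases had higher group means in all 3 other groups than in control cells, in the order CBFA2T3 shRNA, IKKβ(EE) and both by group mean. All values are log2 intensities, which can be compared between arrays for 1 probe set but not between probe sets. Of the 7 helicase probe sets, 5 were at or above log2 5 on all 8 arrays; the other 2, both of IFIH1, reached it only with IKKβ(EE) or both, so they could enter the test only by being high there. A higher level in bulk RNA can mean more RNA per cell or more cells with the RNA, and these cannot be told apart here.

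RIGI encodes RIG-I, the sensor of short RNA with a free triphosphate end. On its leading probe set (242961_x_at, the one with the highest mean) it measured 7.48 and 7.79 in control cells, 7.95 and 8.28 with the CBFA2T3 shRNA, 8.59 and 8.81 with IKKβ(EE), and 8.85 and 9.05 with both. No 2 groups overlapped, although the highest IKKβ(EE) array and the lowest array of both were only a short step apart. Probe set 218943_s_at gave the same order of groups, at 6.84 and 7.10, then 7.51 and 8.29, 8.66 and 8.72, and 9.05 and 9.71. The third, 222793_at, read 6.04 and 6.42, 6.66 and 7.05, 7.36 and 7.20, and 7.41 and 7.92, again without overlap between neighbouring groups. The suffix x marks a set whose probes may also bind other transcripts, but the other sets placed the groups alike.

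IFIH1 encodes MDA5, the sensor of long double-stranded RNA. Its leading probe set (219209_at) measured 8.04 and 8.42 in control cells, 8.42 and 9.03 with the CBFA2T3 shRNA, 10.07 and 10.16 with IKKβ(EE), and 10.38 and 11.07 with both. The CBFA2T3 shRNA arrays touched the control range, while every array with IKKβ(EE) lay above all arrays without it. Probe set 216020_at stood at 3.88 and 4.17, 4.54 and 4.86, 5.41 and 5.65, and 6.11 and 6.86 in the same order of groups. Probe set 1555464_at stood at 3.69 and 4.66, 4.29 and 4.93, 6.92 and 6.86, and 7.81 and 9.13. Both were under log2 5, close to background, in control and CBFA2T3 shRNA cells, so their folds are uncertain.

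DHX58 encodes LGP2, a helicase without the signalling domains of the other two. Its single probe set (219364_at) measured 6.40 and 6.74 in control cells, 7.13 and 7.79 with the CBFA2T3 shRNA, 7.58 and 8.09 with IKKβ(EE), and 7.88 and 8.59 with both. All 6 arrays of the other groups lay above both control arrays, and those 3 groups overlapped with their neighbours. The plot of levels by array shows the 9 leading probe sets on one scale.

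**Figure D1:**
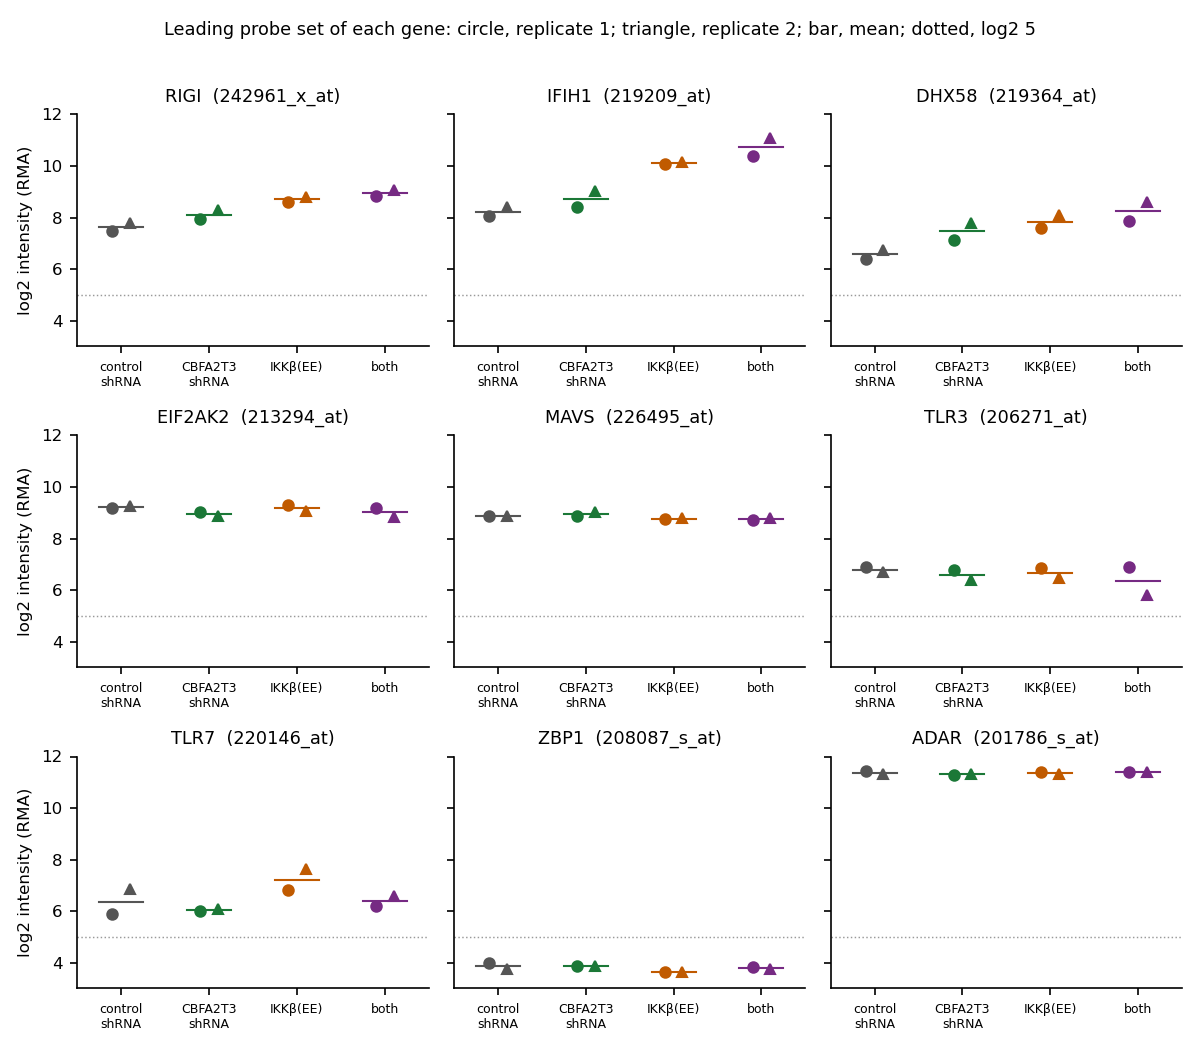
Log2 intensity (vertical axis) of the leading probe set of each of the 9 genes in the 4 groups (horizontal axis); circles are replicate 1, triangles replicate 2, bars the group means, and the dotted line is log2 5. RIGI, IFIH1 and DHX58 climb from control to both, from 8.04 and 8.42 to 10.38 and 11.07 for IFIH1, whereas ADAR stays between 11.28 and 11.44 and ZBP1 lies under the dotted line on all 8 arrays.

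The 2 helicase genes with promoter windows in the RefSeq table (GRCh38.p14) are shown by the 250 bases before their transcription start. They were picked after their group means were seen to be higher with active IKKβ. NF-κB binds κB sites, and a part of such sites in these levels was not tested. Both genes lie on the minus strand, RIGI at chr9:32526197-32526446 and IFIH1 at chr2:162318685-162318934, and the sequences run 5′ to 3′ in the direction of the gene. Capitals mark matches to the κB consensus in both, and in IFIH1 also matches to GAAANNGAAA, the core of the interferon-stimulated response element, on either strand.
RIGI: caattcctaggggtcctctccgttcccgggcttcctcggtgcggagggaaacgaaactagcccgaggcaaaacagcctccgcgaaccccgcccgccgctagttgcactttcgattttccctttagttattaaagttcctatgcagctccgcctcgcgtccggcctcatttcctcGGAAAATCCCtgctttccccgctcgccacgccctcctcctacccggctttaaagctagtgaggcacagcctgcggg
IFIH1: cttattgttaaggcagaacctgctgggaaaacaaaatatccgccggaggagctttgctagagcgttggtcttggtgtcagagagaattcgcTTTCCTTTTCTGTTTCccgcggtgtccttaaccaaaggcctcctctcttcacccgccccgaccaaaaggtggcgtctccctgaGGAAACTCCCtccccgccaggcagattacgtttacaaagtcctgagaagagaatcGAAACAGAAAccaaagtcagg
RIGI held 1 match to the κB consensus, 76 to 67 bases before the start, and no GAAANNGAAA. IFIH1 held a κB match at the same distance, 76 to 67 bases before the start, with different letters, and 3 of GAAANNGAAA, at 159 to 150, 153 to 144 (overlapping the former) and 21 to 12 bases before the start. EIF2AK2, which was not called higher, held 1 GAAANNGAAA as well, from 6 bases before to 4 after the start, shown in capitals in 30 bases of the minus strand at chr2:37156967-37156996.
EIF2AK2: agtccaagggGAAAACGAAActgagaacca
TLR3 held 1 match to GAAANNGAAA and 2 to TTCNNNGAA, the gamma-activated site, and the windows of MAVS and ADAR held none of the 3 motifs. Of 35116 RefSeq windows of 300 bases (250 before to 50 after the start), 3.57% held GAAANNGAAA, 7.66% TTCNNNGAA and 11.3% the κB consensus, searched on both strands. A match describes letters and does not show a bound site, and no match says only that those letters are not in this window. No window was printed for DHX58, TLR7 or ZBP1.

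With both transfections the 3 helicase genes rose against control on all 7 of their probe sets, 5 of which did not depend on the high group to be tested. Differences are log2 ± SE from limma over all 24481 tested probe sets, with p-values adjusted by Benjamini-Hochberg and called under 0.05. RIGI rose by 1.32 ± 0.17 (2.49-fold, adjusted p = 0.00896) on its leading probe set, by 2.41 ± 0.29 (adjusted p = 0.00691) on 218943_s_at and by 1.43 ± 0.22 (adjusted p = 0.0151) on 222793_at. IFIH1 rose by 2.50 ± 0.28, or 5.64-fold (adjusted p = 0.00542). On its dim sets 216020_at and 1555464_at the differences were 2.46 ± 0.25 (adjusted p = 0.00438) and 4.29 ± 0.46 (adjusted p = 0.00469). DHX58 rose by 1.67 ± 0.31, or 3.18-fold (adjusted p = 0.0254). Among all tested probe sets 8.43% were called in this comparison and 4.68% were called higher, against 7 of the 19 member sets higher and 0 lower. The block raised the count to 8, adding a TLR3 set that was lower, where 23.7% of all sets were called and 11.8% called higher. The 7 helicase sets did not overlap with control, which held for 25.5% of all sets upward, and 27.0% of all sets had an unadjusted p under 0.05. Without control replicate 1, control replicate 2 or replicate 2 of both, fewer member sets were called, and so were fewer of all tested probe sets. Such fits keep a single array in 1 group. Losses of calls in them, here and below, cannot be taken as particular to these genes. The DHX58 difference in these 3 fits lay between 1.32 and 1.84. Without replicate 1 of both more member sets were called, the additional ones being the 2 TLR3 sets, lower. More of all probe sets were called in that fit too.

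With IKKβ(EE) alone the helicases stood above control without passing the test. The leading set of IFIH1 differed by 1.88 ± 0.28 (3.69-fold, adjusted p = 0.0617), that of RIGI by 1.07 ± 0.17 (2.10-fold, adjusted p = 0.0858) and DHX58 by 1.27 ± 0.31 (2.41-fold, adjusted p = 0.235). On all 7 helicase sets both IKKβ(EE) arrays lay above both control arrays, which was true of 18.9% of all tested probe sets. By limma 0 of the 19 member sets were called, where 0.229% of all probe sets were (0.221% higher). An unadjusted p under 0.05 was found for 8, the 7 helicase sets and 1 of TLR7, against 9.76% of all probe sets. With the replicate block 7 were called, the 7 helicase sets, against 3.39% of all probe sets (2.96% higher). The 2 dim IFIH1 sets among them could be tested only through arrays with IKKβ(EE). Among the 5 helicase sets at log2 5 on all arrays, 0 were called by limma, 5 with the block and 5 at an unadjusted p under 0.05. With the block adjusted p was 0.00153 for IFIH1, 0.00232 for RIGI and 0.00264 for DHX58. Without either array of both, 4 were called (3 of IFIH1 and RIGI 218943_s_at), and in these fits the 2 groups compared kept all 4 arrays.

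With the CBFA2T3 shRNA alone the helicases lay above the control shRNA by smaller amounts. DHX58 differed by 0.90 ± 0.31 (1.86-fold, adjusted p = 0.219), RIGI by 0.48 ± 0.17 (1.40-fold, adjusted p = 0.233) on its leading set and by 0.93 ± 0.29 (adjusted p = 0.178) on 218943_s_at, and IFIH1 by 0.49 ± 0.28 (adjusted p = 0.444). By limma 0 of 19 member sets were called, where 0.690% of all probe sets were (0.294% higher). An unadjusted p under 0.05 was found for 5 member sets, all of helicases and all higher, against 16.2% of all probe sets. With the replicate block 4 were called higher, against 7.72% of all probe sets called and 3.98% called higher: DHX58 (adjusted p = 0.00928), RIGI 218943_s_at (0.0269), RIGI 242961_x_at (0.0308) and IFIH1 216020_at (0.0337), 3 of them among the 5 sets at log2 5 on all arrays. Of the 7 helicase sets 5 did not overlap with control, a state found upward in 25.9% of all probe sets. The 95% confidence interval of the leading IFIH1 set ran from -0.16 to 1.14.

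A wider comparison set all 4 arrays with the CBFA2T3 shRNA against all 4 without it, as the mean of the shRNA differences in cells with and without IKKβ(EE). The 7 helicase sets differed by 0.36 to 1.01, and all 7 had an unadjusted p under 0.05, as did 25.8% of all probe sets. IFIH1 216020_at was called higher (0.82 ± 0.18, adjusted p = 0.0390). It was the single member set called, and it is one of the 2 sets that could be tested only through their level in cells with IKKβ(EE). Of the 5 helicase sets at log2 5 on all arrays 0 were called by limma (5 at an unadjusted p under 0.05, 5 with the block), where 7.60% of all probe sets were called and 3.46% called higher. RIGI 218943_s_at came next with 0.81 ± 0.21 (adjusted p = 0.0558). The IFIH1 call was lost without any 1 array except replicate 1 of both (adjusted p from 0.0609 to 0.153), and without that array 6 member sets were called, 5 helicase sets higher and TLR3 239587_at lower. With the replicate block 9 were called, against 21.9% of all probe sets (11.2% higher): the 7 helicase sets higher, and TLR3 239587_at and TLR7 220146_at lower.

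Both transfections were also compared with each alone. Against the CBFA2T3 shRNA alone IFIH1 rose by 2.00 ± 0.28 (4.01-fold, adjusted p = 0.0263), and its 2 dim sets by 3.86 ± 0.46 (adjusted p = 0.0158) and 1.78 ± 0.25 (adjusted p = 0.0287). The dim sets were under log2 5 in CBFA2T3 shRNA cells, so these differences are taken from near background. These 3 were the member sets called, 1 of them among the 5 sets at log2 5 on all arrays, where 0.862% of all probe sets were (0.821% higher). With the block 7 were called, adding RIGI on all 3 sets (adjusted p from 0.00564 to 0.0389) and DHX58 (0.0164), against 5.08% (3.64% higher). Without either CBFA2T3 shRNA array 0 were called, with either control array or replicate 2 of both left out 1 was called, and without replicate 1 of both there were 4. Against IKKβ(EE) alone the helicase sets differed by 0.25 to 1.58, and by limma 0 of 19 were called, where 0.143% of all probe sets were (0.0858% higher). An unadjusted p under 0.05 was found for 4 member sets, against 14.8% of all probe sets. Of these, 3 were helicase sets, all higher, and 1 was TLR7 222952_s_at, which was lower (-0.39 ± 0.17). With the block 2 were called, IFIH1 1555464_at (1.58 ± 0.46, adjusted p = 0.0332, and 0.184 without the block) and IFIH1 216020_at (0.95 ± 0.25, adjusted p = 0.0234, and 0.164 without it), against 4.56% (2.18% higher). Both are the sets tested only through their high groups, and of the 5 sets at log2 5 on all arrays 0 were called, also with the block (1 at an unadjusted p under 0.05). Without replicate 1 of both the latter was called without the block (adjusted p = 0.0476). The IKBKB probe set that carried the transgene's level itself differed by 1.09 ± 0.30 between both and IKKβ(EE) alone, with both the higher (adjusted p = 0.171), and its part in the result was not tested.

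The interaction, the difference with both minus the sum of the differences with each alone, asked whether the transfections departed from adding up. For the helicase sets it ran from -0.50 (DHX58) to 1.15 (IFIH1 1555464_at). By limma 0 of 19 member sets were called and 0 had an unadjusted p under 0.05, beside 0.0123% called and 2.17% under that unadjusted limit among all probe sets. The block gave 0 as well. Confidence intervals were wide: -0.81 to 0.34 for the leading set of RIGI, -0.80 to 1.04 for that of IFIH1 and -1.53 to 0.54 for DHX58. The comparisons above share control or single-transfection arrays, so their values are given side by side and are not independent.

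**Figure D2:**
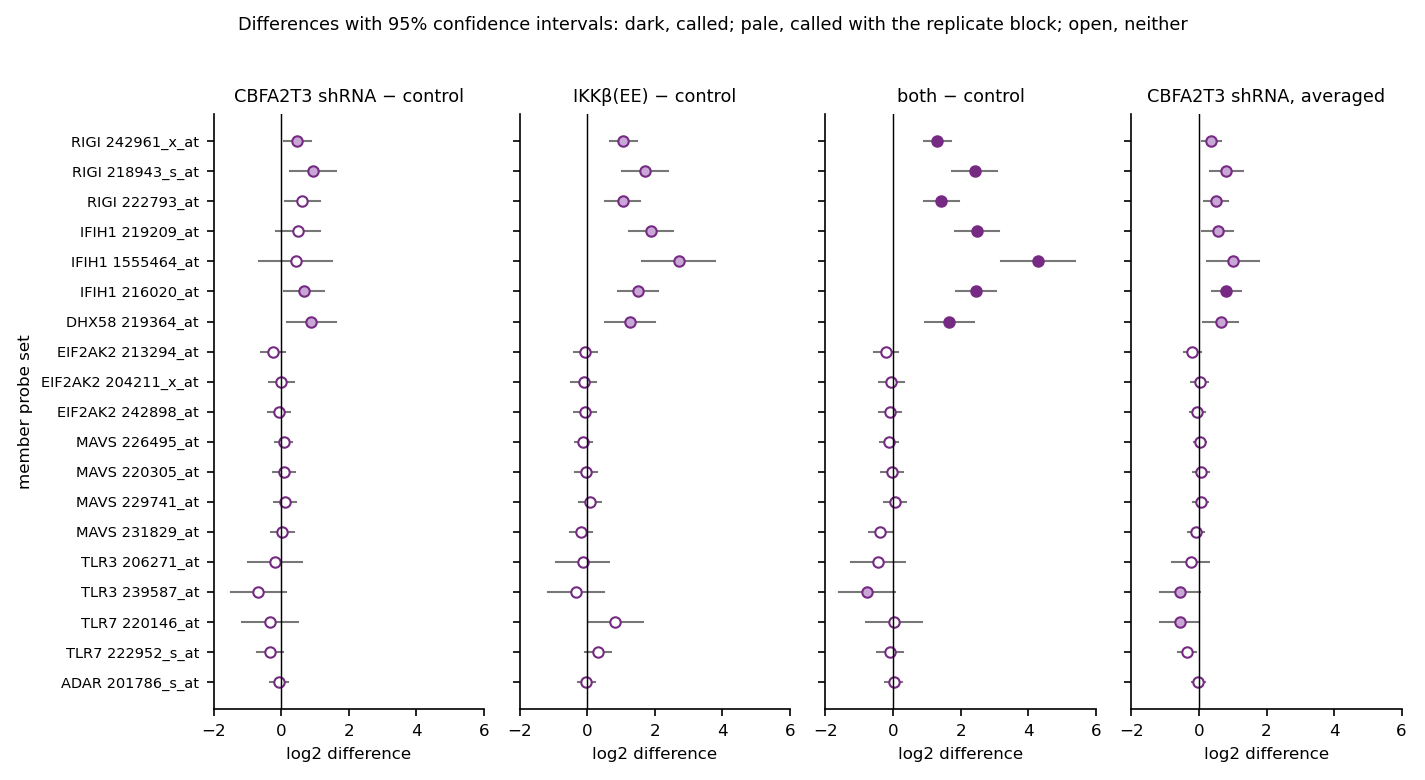
Log2 difference (horizontal axis) with its 95% confidence interval for the 19 tested member probe sets (vertical axis) in 4 comparisons; dark points were called, pale points were called with the replicate block alone, open points in neither fit. In the panel of both against control the 7 helicase sets lie between 1.32 and 4.29 and are dark, and the 12 sets of the other genes lie between -0.76 and 0.07.

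The adaptor and the remaining sensors did not share the helicases' pattern. Over all probe sets, arrays not overlapping with control were counted upward only. Those shares were 25.9%, 18.9% and 25.5% with the CBFA2T3 shRNA, IKKβ(EE) and both. The share lying below control was not counted, so sets described as below control have no share beside them. MAVS, the adaptor of RIG-I and MDA5, measured 8.86 and 8.89 in control cells, 8.89 and 9.01 with the CBFA2T3 shRNA, 8.74 and 8.79 with IKKβ(EE), and 8.73 and 8.78 with both on its leading set (226495_at). The 8 arrays lay within 0.28 of each other, with IKKβ(EE) and both below control, and the difference of both from control was -0.12 ± 0.11 (adjusted p = 0.520, interval -0.38 to 0.13). On 231829_at it measured 6.05 and 6.04, 5.99 and 6.17, 5.83 and 5.90, and 5.84 and 5.49. Again both arrays of IKKβ(EE) and of both lay below control, by -0.18 ± 0.15 (adjusted p = 0.700) and -0.38 ± 0.15 (adjusted p = 0.148, the 1 set outside the helicases with an unadjusted p under 0.05 in that comparison). The other 2 sets ranged from 8.08 to 8.43 and from 6.99 to 7.34.

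EIF2AK2 encodes PKR, an interferon-inducible kinase. On 213294_at it measured 9.18 and 9.25, 9.04 and 8.89, 9.29 and 9.05, and 9.18 and 8.85 in control, CBFA2T3 shRNA, IKKβ(EE) and both. The CBFA2T3 shRNA arrays lay below control (-0.25 ± 0.15, adjusted p = 0.471), and the upper 95% limit of that difference was 0.10. Both differed from control by -0.20 ± 0.15 (adjusted p = 0.441), with an upper limit of 0.15. Its sets 204211_x_at (8.12 to 8.53) and 242898_at (5.68 to 5.98) overlapped between control and both.

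ADAR, the editing enzyme, had 1 probe set (201786_s_at), which measured 11.44 and 11.32, 11.28 and 11.33, 11.41 and 11.31, and 11.38 and 11.41. Each group overlapped with control, while the 2 arrays of both lay above the 2 CBFA2T3 shRNA arrays (0.09 ± 0.11). The intervals of the 3 differences from control ran from -0.33 to 0.28 at their widest. The set does not separate the interferon-inducible from the constitutive ADAR transcript.

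TLR3, the endosomal sensor of double-stranded RNA, differed between replicates as well as between groups. Its leading set (206271_at) measured 6.88 and 6.69, 6.79 and 6.41, 6.85 and 6.46, and 6.90 and 5.79, and replicate 2 was the lower in all 4 groups. Set 239587_at measured 6.81 and 6.84, 6.47 and 5.83, 6.78 and 6.22, and 6.56 and 5.56. There both arrays of each other group lay below control, by -0.76 ± 0.35 with both (adjusted p = 0.215, or 0.0401 with the replicate block) and by -0.67 ± 0.35 with the CBFA2T3 shRNA (adjusted p = 0.408). Averaged over cells with and without IKKβ(EE), the shRNA difference on this set was -0.56 ± 0.25 (adjusted p = 0.212, or 0.0385 with the block). Without replicate 1 of both the 2 sets passed the test, lower than control (adjusted p = 0.0343 and 0.0391). The set 242667_at stayed between 3.58 and 3.92 and was not tested.

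TLR7, the endosomal sensor of single-stranded RNA, measured 5.90 and 6.84, 6.01 and 6.07, 6.80 and 7.62, and 6.19 and 6.60 on 220146_at. IKKβ(EE) arrays held the highest value, but their lower array overlapped with control (0.84 ± 0.35, adjusted p = 0.509). The shRNA difference averaged over both backgrounds was -0.57 ± 0.25 (adjusted p = 0.203, or 0.0313 with the block). Set 222952_s_at measured 5.55 and 5.41, 5.22 and 5.09, 5.65 and 5.95, and 5.58 and 5.23. There the CBFA2T3 shRNA arrays lay below control, the IKKβ(EE) arrays lay above it, and those of both overlapped with it. The averaged shRNA difference on this set was -0.36 ± 0.12 (limma adjusted p = 0.105, unadjusted p = 0.0162, or adjusted p = 0.0543 with the block). ZBP1 measured between 3.64 and 3.97 on 208087_s_at and between 2.91 and 3.70 on 242020_s_at, under log2 5 on all 8 arrays, and was not tested. Over the 12 tested sets of MAVS, EIF2AK2, ADAR, TLR3 and TLR7, differences of both from control ran from -0.76 to 0.07, with 0 called by limma (1 at an unadjusted p under 0.05, and 1 called with the block).

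Replicate 2 exceeded replicate 1 in all 4 groups on 5 of the 7 helicase sets. The difference averaged 0.56 for DHX58, 0.44 for IFIH1 and 0.26 for RIGI on their leading sets, and -0.52 for TLR3. Taken alone, replicate 1 and replicate 2 each put DHX58, IFIH1 and RIGI in the order control, CBFA2T3 shRNA, IKKβ(EE), both. For DHX58 the shRNA array stood at 7.13 against 6.40 within replicate 1 and at 7.79 against 6.74 within replicate 2.

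Over the 8 arrays the leading sets of RIGI and IFIH1 correlated at 0.979, RIGI and DHX58 at 0.957, and IFIH1 and DHX58 at 0.915. The points share 4 groups and 2 replicates, so these values are descriptions and carry no test. The 3 genes outside the members with the highest Pearson correlation to RIGI were CCL5 (0.985), a chemokine, ANAPC10 (0.981) and NFKBIZ (0.976), a nuclear IκB protein. For IFIH1 they were CCL5 (0.994), the long noncoding RNA MROCKI (0.992) and NFKBIZ (0.991). For DHX58 they were PTGER4 (0.995), a prostaglandin receptor, IL2RG (0.990), a cytokine receptor chain, and CLEC2B (0.986). The genes most like EIF2AK2 were CEP76 (0.996), DBR1 (0.964) and HNRNPR (0.962), those most like MAVS were SERGEF (0.994), NREP (0.981) and PPP2R5B (0.979), and those most like TLR3 were XRCC2 (0.983), LRR1 (0.977) and TMA7 (0.976). TLR7 was followed by ARGLU1 (0.991), SERINC5 (0.987) and CAMK2D (0.969), and ADAR by CLCN3 (0.942), MUC3A (0.922) and PGBD4 (0.901). These are the highest of all genes tested, chosen for that, and are no evidence of a shared role.

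The sensors' end products, the interferons, were mostly at background. Of 20 interferon genes listed, 18 had a probe set, and 15 of them, IFNB1 and all IFNA genes included, did not reach log2 5 on any array (2.27 to 4.09). The other 3 were highest with both. IFNL2, a type III interferon, measured 3.67 and 3.96 in control cells, 4.09 and 3.70 with the CBFA2T3 shRNA, 4.97 and 4.78 with IKKβ(EE), and 7.05 and 8.53 with both. IFNL1 measured 3.52 and 4.05, 3.61 and 3.62, 4.66 and 4.29, and 6.01 and 6.50. IFNG, which encodes type II interferon, measured 3.84 and 3.88, 3.78 and 3.25, 4.95 and 4.98, and 6.21 and 6.52. All 3 reached log2 5 only in the arrays of both, which let them be tested. Against control IFNL2 differed by 3.98 ± 0.42 (adjusted p = 0.00455), IFNL1 by 2.47 ± 0.23 (adjusted p = 0.00317) and IFNG by 2.51 ± 0.19 (adjusted p = 0.00144), and with no floor on levels, 54613 probe sets tested, adjusted p was 0.00180, 0.00120 and 0.000402. Control values lay near background, so these sizes are uncertain. Counted from log2 5 instead, the mean with both was at least 6.93-fold higher for IFNL2, 2.39-fold for IFNL1 and 2.58-fold for IFNG. With IKKβ(EE) alone all 3 lay above control but under log2 5, by 1.06 ± 0.42 for IFNL2 (adjusted p = 0.483), 0.69 ± 0.23 for IFNL1 (0.409) and 1.11 ± 0.19 for IFNG (0.0963, or 0.0264 with the block). The CBFA2T3 shRNA alone left them at differences of 0.08, -0.17 and -0.34 (adjusted p from 0.434 to 0.953). For the interaction none of the 3 was called by limma (lowest adjusted p = 0.542), beside 0.0175% of all genes. All 3 had an unadjusted p under 0.05, as did 1.90% of all genes. They could be tested only through high values with both. That selection itself favours a positive interaction, so no conclusion is drawn from these p-values. IFNL2 and IFNL3 are near-identical, so which of them the IFNL2 set measured is uncertain. Without control replicate 1 or 2, IFNL2 was no longer called against control (adjusted p = 0.0504 and 0.0568). IFNG was called in all 6 fits that could test it, since leaving out either array of both took it under the floor.

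**Figure D3:**
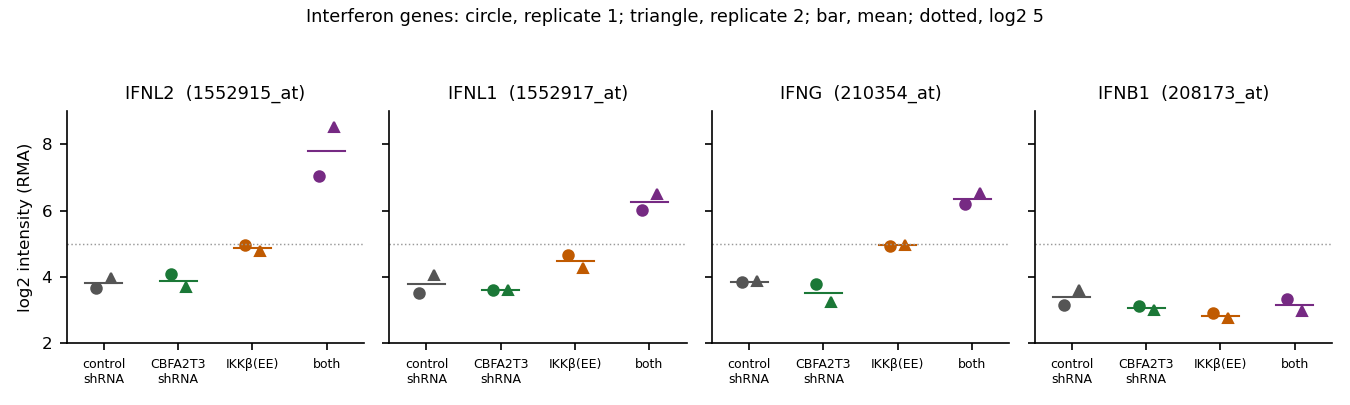
Log2 intensity (vertical axis) of 4 interferon genes in the 4 groups (horizontal axis); circles are replicate 1, triangles replicate 2, bars the means, and the dotted line is log2 5. IFNL2, IFNL1 and IFNG exceed log2 5 with both alone, with IFNL2 at 7.05 and 8.53, and IFNB1 stays between 2.76 and 3.62.

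Genes that relay the sensors' signal changed little as a group. Of 17 tested adaptors and kinases, 0 were called with the CBFA2T3 shRNA and 0 with IKKβ(EE) by limma (4 and 2 at an unadjusted p under 0.05), and the medians were 0.06 and 0.01 beside 0.02 and -0.04 over all 11449 genes. Over all genes 0.839%, 0.297% and 8.73% were called with the CBFA2T3 shRNA, IKKβ(EE) and both, 7.80%, 3.68% and 24.1% with the block, and 16.5%, 9.99% and 27.7% at an unadjusted p under 0.05. Of the 17, the block called 1 higher and 1 lower with the shRNA, 1 higher with IKKβ(EE) and 3 higher with both. With both, 2 of 17 were called higher without it, where 4.97% of all genes were, TANK (1.54 ± 0.26, adjusted p = 0.0197), a scaffold of TBK1 that is also an NF-κB target, and MYD88 (0.84 ± 0.18, adjusted p = 0.0343), the adaptor of TLR7. TANK differed from control by 1.55 ± 0.26 with IKKβ(EE) alone (adjusted p = 0.0946, or 0.00378 with the block). MYD88 measured 8.48 and 7.99 in control cells, 9.05 and 9.15 with the CBFA2T3 shRNA, 8.54 and 8.33 with IKKβ(EE), and 9.17 and 8.99 with both. It was thus high in the 4 arrays with the CBFA2T3 shRNA and overlapped between the other 4. The shRNA difference averaged over both backgrounds was 0.75 ± 0.13 (adjusted p = 0.0193), with TRAF3 lower at -0.50 ± 0.12 (adjusted p = 0.0443). In that comparison 1 of the 17 was called higher and 1 lower, beside 7.93% of all genes called and 3.76% called higher. With the block MYD88 passed with the shRNA alone as well (0.86 ± 0.18, adjusted p = 0.0179, or 0.0829 without it). Leaving out 1 array kept the call with both in 5 of 8 fits for TANK (lost without control 1, control 2 or replicate 2 of both) and in 1 of 8 for MYD88 (called without IKKβ(EE) replicate 2). The averaged call was kept in 5 of 8 fits for MYD88 (lost without control 2, CBFA2T3 shRNA 2 or IKKβ(EE) 2, adjusted p up to 0.0906) and in 1 of 8 for TRAF3 (called without CBFA2T3 shRNA 1).

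Among 18 regulators of the helicases 0 were called with the CBFA2T3 shRNA and 0 with IKKβ(EE) (3 and 4 at an unadjusted p under 0.05), and 4 of 18 were called higher with both, beside 4.97% of all genes. With the block the shRNA gave 1 higher and 1 lower, IKKβ(EE) 3 higher, and both 6 higher and 2 lower, where 7.80%, 3.68% and 24.1% of all genes were called. The largest were the deubiquitinase CYLD (1.54 ± 0.26, adjusted p = 0.0184), which restrains RIG-I and NF-κB signalling and differed by 1.39 ± 0.26 with IKKβ(EE) (adjusted p = 0.114, or 0.00114 with the block), and NLRC5 (1.32 ± 0.19, adjusted p = 0.0113), a regulator of MHC class I genes that also binds RIG-I. With the shRNA averaged over both backgrounds 1 of the 18 was called higher and 1 lower, beside 7.93% of all genes called and 3.76% called higher. TRIM4 was higher (0.49 ± 0.08, adjusted p = 0.0173) and MEX3C lower (-0.84 ± 0.16, adjusted p = 0.0272). Each encodes a ubiquitin ligase of RIG-I. Leaving out 1 array kept these in 3 of 8 fits (without CBFA2T3 shRNA 1 or either array of both) and 4 of 8 (lost without control 2, either CBFA2T3 shRNA array or IKKβ(EE) 2). Without control 1 or 2, 0 of the 18 were called with both, and without replicate 2 of both 1 was.

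Interferon-stimulated effectors, a list without the members themselves, were higher than control in 28 of 31 with the CBFA2T3 shRNA, 27 of 31 with IKKβ(EE) and 31 of 31 with both, at medians of 0.32, 0.25 and 0.75, where 53.8%, 41.8% and 47.0% of all genes were higher. Called higher were 2, 0 and 18 of them (16, 13 and 24 at an unadjusted p under 0.05; 10, 4 and 23 with the replicate block), beside 43, 32 and 569 of the 11449 genes. RSAD2 (viperin, an antiviral enzyme) measured 6.84 and 6.96 in control cells, 9.01 and 10.15 with the CBFA2T3 shRNA, 9.49 and 8.98 with IKKβ(EE), and 10.60 and 10.91 with both. Every array of the other 3 groups lay above control, and the rise was 2.68 ± 0.35 with the shRNA (adjusted p = 0.0334), while both gave 3.85 ± 0.35 (adjusted p = 0.00269). ISG15, a ubiquitin-like modifier, measured 10.80 and 10.58, 11.65 and 12.12, 11.35 and 11.13, and 12.35 and 12.59, and rose by 1.20 ± 0.19 with the shRNA (adjusted p = 0.0482). ISG20, an exonuclease of RNA, rose by 3.43 ± 0.50 with both (adjusted p = 0.0128). Without control 1 or control 2, 3 and 2 of the 31 were called with both, without replicate 2 of both 8, and RSAD2 was called in all 8 fits that left out 1 array. With the shRNA alone RSAD2 was called in 3 of the 8 fits and ISG15 in 2, and 0 of the 31 were called without control 1, control 2, CBFA2T3 shRNA replicate 2 or either IKKβ(EE) array. Beside 431 of the 11449 genes called higher (1433 with the block), the shRNA averaged over both backgrounds gave 15 of the 31 called higher (18 with the block). Without 1 array that count was 3 (control 1), 0 (control 2), 7 (CBFA2T3 shRNA 2), 5 (IKKβ(EE) 2), 9 (IKKβ(EE) 1 or replicate 2 of both), 12 (replicate 1 of both) or 14 (CBFA2T3 shRNA 1).

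The interferon receptor and signalling genes were higher than control in 8 of 8 in each group, with medians of 0.19, 0.59 and 0.74. Of all genes 53.8%, 41.8% and 47.0% were higher, with medians of 0.02, -0.04 and -0.02. IRF9, the DNA-binding subunit of the complex that interferon activates, measured 6.20 and 5.79, 6.87 and 7.52, 7.95 and 7.53, and 8.61 and 8.67. Both rose above control by 2.64 ± 0.25 (adjusted p = 0.00317), in all 8 fits that left out 1 array, and the shRNA alone differed by 1.20 ± 0.25 (adjusted p = 0.0815, or 0.0322 with the block). SOCS1, an inhibitor of interferon signalling, measured 4.76 and 4.14, 5.23 and 5.64, 7.30 and 8.14, and 7.92 and 8.99. IKKβ(EE) raised it by 3.27 ± 0.41 (adjusted p = 0.0376), and with both it passed at an adjusted p of 0.00436, from control values near background. The IKKβ(EE) call was lost in 6 of 8 fits that left out 1 array, all but those without an array of both (adjusted p up to 0.346), and the call with both was lost without control 2 (0.0585). In all 0, 1 and 4 of the 8 were called (2, 5 and 6 at an unadjusted p under 0.05; 1, 3 and 7 with the block), beside 0.839%, 0.297% and 8.73% of all genes (16.5%, 9.99% and 27.7% unadjusted, and 7.80%, 3.68% and 24.1% with the block), and 1 with both when control 2 was left out.

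Among 6 genes of the oligoadenylate synthetase pathway, a further sensor of double-stranded RNA that activates RNase L, OAS2 measured 6.89 and 6.81, 7.57 and 7.59, 7.18 and 7.22, and 7.85 and 7.87. The 4 groups did not overlap, and OAS2 rose by 0.73 ± 0.11 with the CBFA2T3 shRNA (adjusted p = 0.0441), while both raised it by 1.01 ± 0.11 (adjusted p = 0.00457). OASL, which has no synthetase activity and helps RIG-I, rose by 3.46 ± 0.36 with both (adjusted p = 0.00436), from 4.70 and 4.78 to 7.94 and 8.45. Its control values were under log2 5, close to background, so this size is uncertain. Called were 1, 0 and 2 of the 6 (3, 2 and 2 at an unadjusted p under 0.05; 2, 1 and 2 with the block), beside 0.839%, 0.297% and 8.73% of all genes (16.5%, 9.99% and 27.7% unadjusted, and 7.80%, 3.68% and 24.1% with the block). The call of OAS2 with the shRNA was lost in 6 of 8 fits, all but those without an array of both, and without control 2 neither gene was called with both (adjusted p = 0.0596 for OAS2 and 0.0585 for OASL).

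PKR is not the only eIF2α kinase, and 15 genes of these kinases and the stress response below them were tested. Their levels cannot be assigned to PKR alone. With the CBFA2T3 shRNA 0 were called by limma (3 at an unadjusted p under 0.05) and 5 with the block, with IKKβ(EE) 0 (0 at an unadjusted p under 0.05, 1 with the block), and with both 1 (4 with the block). Of all genes 0.839%, 0.297% and 8.73% were called, 7.80%, 3.68% and 24.1% with the block. With the CBFA2T3 shRNA and IKKβ(EE), 16.5% and 9.99% of all genes had an unadjusted p under 0.05. The 1 with both was the transcription factor ATF3 (2.14 ± 0.43, adjusted p = 0.0298). TRIB3, a target of ATF4, showed the largest difference with the shRNA alone, 1.19 ± 0.65 (adjusted p = 0.426, or 0.00904 with the block). Its arrays were 9.10 and 10.40 in control cells and 10.51 and 11.36 with the shRNA, so replicate 2 was the higher in each group and the groups did not overlap. With the shRNA averaged over both backgrounds 1 of the 15 was called, beside 7.93% of all genes. CHAC1, another ATF4 target, was higher over both backgrounds by 0.56 ± 0.13 (adjusted p = 0.0452), a call that was lost in 7 of 8 fits that left out 1 array. Without control 1, control 2 or replicate 2 of both, 0 of the 15 were called with both.

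Other double-stranded RNA binding proteins, 14 tested, had 0 called with the shRNA and 0 with IKKβ(EE) (2 and 2 at an unadjusted p under 0.05), and 2 with both, beside 8.73% of all genes. The 2 were the helicase-like antiviral genes ZNFX1 (1.47 ± 0.25, adjusted p = 0.0187) and DDX60L (1.18 ± 0.21, adjusted p = 0.0213). With the block 1 was called higher with the shRNA, 0 with IKKβ(EE), and 2 higher and 1 lower with both, beside 7.80%, 3.68% and 24.1% of all genes. Neither was called without control 1, control 2 or replicate 2 of both.

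**Figure D4:**
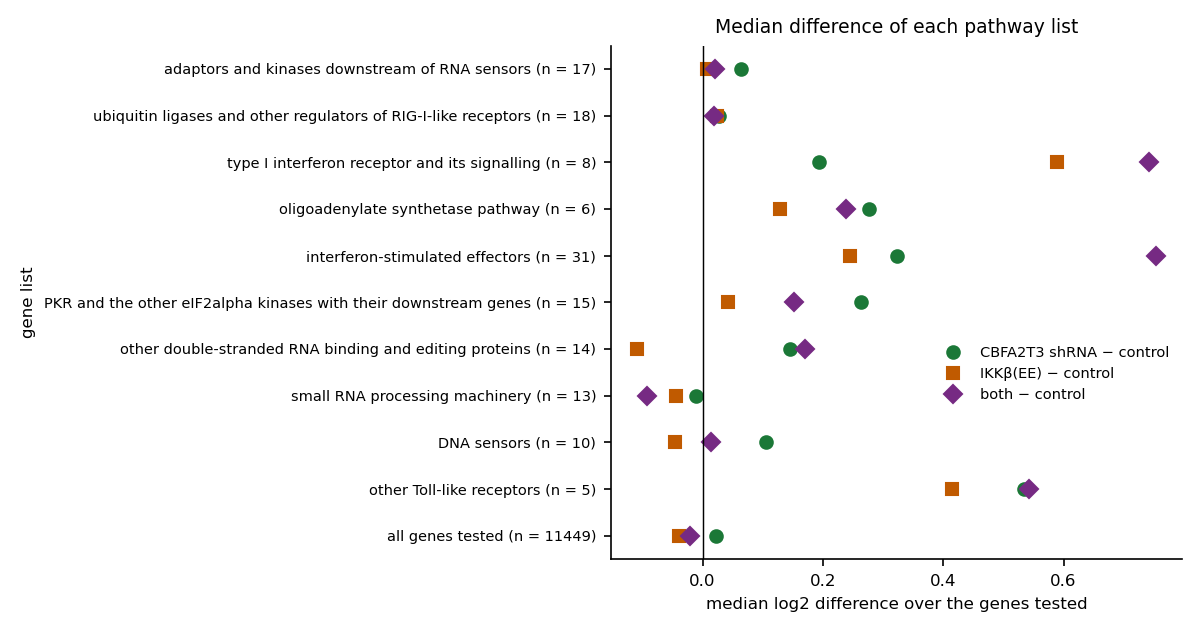
Median log2 difference from control (horizontal axis) over the tested genes of 10 pathway lists and over all 11449 genes (vertical axis); green circles are the CBFA2T3 shRNA, orange squares IKKβ(EE) and purple diamonds both. Medians of interferon-stimulated effectors reach 0.75 with both and those of interferon signalling 0.74, while adaptors and kinases stay between 0.01 and 0.06.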

How the data were processed

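RNA was hybridized to 8 Affymetrix U133 Plus 2.0 arrays. The authors deposited log2 intensities made with RMA, per the submitters' processing notes; its version is not given in the sources used here. RMA gives the arrays a common distribution, so a shift of most transcripts would not be seen. Of 54675 probe sets, 62 controls and 30132 under log2 5 on all but at most 1 array were left out, which left 24481. Symbols came from GEO's platform annotation (1 symbol for 41097 sets, several for 1801, none for 11777).

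R 4.3.3 and limma 3.58.1 were used to fit each set, with 1 mean per group and a common spread (4 residual and 3.54 prior degrees of freedom), over 7 comparisons, two-sided, with Benjamini-Hochberg adjustment in each. Errors are SE. The number of arrays limits precision: the median SE was 0.15, and an exact permutation test of 2 against 2 arrays cannot give a p under 0.333. The fit was tested on simulated data. Replicate differences correlated in all 6 pairs of groups (0.34 to 0.58), so numbers were taken as pairs, from the values and not the labels. Alternatives were a replicate block, other floors, cyclic loess, trend with robust moderation, the compared groups alone and each array left out. For each list up to 2 called genes at either end are named, or else the extremes, and per member the 3 most correlated genes. Members and lists were chosen with earlier results of these data known.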

Additional observations from a re-analysis of the deposited data

How the results depend on the processing

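No called difference of the 19 member probe sets changed direction under any alternative run. Counts of called member sets were unchanged with a floor at log2 6 and with cyclic loess in all 7 comparisons. With IKKβ(EE) against control the count went from 0 to 1 with no floor, to 1 with trend and robust moderation (IFIH1 in both, adjusted p = 0.0384 and 0.0403) and to 4 with the compared groups alone. With both against the CBFA2T3 shRNA the compared groups alone gave 0 in place of 3. For the shRNA averaged over both backgrounds trend and robust moderation gave 2 in place of 1. With the replicate block the count was 4 in place of 0 for the CBFA2T3 shRNA, 7 in place of 0 for IKKβ(EE), 8 in place of 7 for both against control, 2 in place of 0 for both against IKKβ(EE), 7 in place of 3 for both against the CBFA2T3 shRNA, 0 in both fits for the interaction, and 9 in place of 1 for the averaged shRNA. The block changed no other call than these additions. With 1 array left out, counts ranged from 0 to 0 for the CBFA2T3 shRNA, 0 to 4 for IKKβ(EE), 2 to 9 for both against control, 0 to 1 for both against IKKβ(EE), 0 to 4 for both against the CBFA2T3 shRNA, 0 to 0 for the interaction and 0 to 6 for the averaged shRNA. The cause of these changes was not tested. In the fits with 1 array left out a group kept a single array, and calls over all probe sets changed as well. Signal limits ZBP1, most interferon genes and the dim IFIH1 sets, whose low values lie near background and have no detection calls.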

Other observations

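The machinery that processes small RNAs, which an shRNA passes through, was not higher with the CBFA2T3 shRNA. Of 13 tested genes of this group 6 were higher than control with the shRNA, at a median of -0.01, beside 53.8% of all genes. By limma 1 was called lower and 0 higher with the shRNA, with both and averaged over both backgrounds. Of all genes 0.839%, 8.73% and 7.93% were called there. With the block 1, 2 and 3 were called lower and 0 higher, beside 7.80%, 24.1% and 22.0% of all genes. TNRC6C, a scaffold of the silencing complex, measured 6.48 and 6.52 in control cells, 5.80 and 5.70 with the CBFA2T3 shRNA, 6.39 and 6.34 with IKKβ(EE), and 5.81 and 5.60 with both. The 4 arrays with the CBFA2T3 shRNA lay below the other 4, a state whose share over all probe sets was not counted. TNRC6C fell by 0.75 ± 0.12 with the shRNA (limma adjusted p = 0.0489), by 0.79 ± 0.12 with both (adjusted p = 0.0145) and by 0.70 ± 0.09 averaged over both backgrounds (adjusted p = 0.00959). The first call was lost in 6 of 8 fits that left out 1 array, all but those without an array of both. The second was lost without control 1, control 2 or replicate 2 of both, and the third without control 2 or CBFA2T3 shRNA replicate 2.

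Sensors of DNA gave 0 calls among 10 tested genes in each of the 3 comparisons with control by limma, and 0 with the replicate block (1, 0 and 1 at an unadjusted p under 0.05). The list of other Toll-like receptors had 5 tested genes. It included LY96, which encodes a co-receptor, and TLR9, which is also in the list of DNA sensors. Of the 5, 5 were higher than control with the CBFA2T3 shRNA at a median of 0.53. With IKKβ(EE) 4 were higher at a median of 0.41, and with both 5 at a median of 0.54. Of all genes 53.8%, 41.8% and 47.0% were higher. Called were 0, 0 and 2 (3, 2 and 4 at an unadjusted p under 0.05), beside 0.839%, 0.297% and 8.73% of all genes. TLR10, which B cells express, measured 7.84 and 7.78 in control cells, 8.47 and 9.14 with the shRNA, 8.32 and 8.45 with IKKβ(EE), and 8.78 and 9.17 with both. It rose with both by 1.16 ± 0.23 (adjusted p = 0.0280), and the shRNA alone differed by 1.00 ± 0.23 (adjusted p = 0.0967, or 0.0190 with the block). The TLR10 call with both was lost without control 1, control 2 or replicate 2 of both (adjusted p up to 0.153). TLR1 rose by 0.47 ± 0.12 with both (adjusted p = 0.0481), a call that was lost in each of the 8 fits that left out 1 array (adjusted p from 0.0736 to 0.194).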
